A study of Mus musculus with 19 samples.

Results

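The complement genes examined in 19 primary mouse sarcomas were 9 of the 48795 genes in the deposited table, namely the C1q chain genes C1qa, C1qb and C1qc, the C1 protease genes C1ra and C1s1, and C2, C3, C4b and Cfb. They were picked by name, with earlier results of these data known. Tumors labelled Rag2-/- (n = 11) were compared with tumors labelled Rag2+/- (n = 8), which came from littermates with 1 working copy of Rag2. Rag2 is needed to assemble antigen receptor genes, so Rag2-/- mice lack mature T and B cells and keep their other leukocytes. In all mice, at 6 to 10 weeks of age, the gastrocnemius muscle was injected with an adenovirus encoding Cas9 and a guide RNA against Trp53, and then with 300 µg of the carcinogen 3-methylcholanthrene (MCA) in sesame oil. The mice received no other treatment, and each tumor was collected at about 70 to 150 mm3. Each tumor gave 1 bulk RNA sequencing library and is named here by its library code (S41 to S51 for Rag2-/- tumors, S52 to S60 for Rag2+/- tumors).

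Complement is a cascade of blood and tissue proteins that marks targets, draws in leukocytes and opens membranes. In the classical pathway, C1q, built from A, B and C chains, binds antibody or surfaces directly and activates the proteases C1r and C1s, which cut C4 and C2 to form a C3 convertase. In the alternative pathway, factor B (Cfb) joins C3b in a convertase that cuts more C3. The liver makes most plasma complement, but in tissues C1q chains are products mainly of macrophages, while C1r, C1s, C3, C4 and factor B are also made by stromal and epithelial cells under inflammatory signals.

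On GRCm38, the C1q genes lie side by side on the minus strand of chromosome 4: C1qb at 136880129 to 136886187, C1qc at 136889804 to 136893065 and C1qa at 136895917 to 136898803. C1ra is on the plus strand of chromosome 6 at 124512405 to 124523443, and C1s1 lies next to it on the minus strand at 124530345 to 124542359. Cfb (34856374 to 34862518) and C2 (34862604 to 34898265) are neighbors on the minus strand of chromosome 17. C4b (34728380 to 34743882) is on the same strand, with its paralog C4a (34809092 to 34823464) between it and Cfb. C3 lies apart on that chromosome at 57203970 to 57228136. All 9 are protein-coding. RefSeq promoter windows of 300 bases (250 before and 50 after the start, GRCm38.p6) were given for 5 of the 9 genes, in 6 windows. Since the genes fell into co-varying groups (described further on), the bases before the start of 1 gene of each group are shown, C1qb at chr4:136886201-136886450 (minus strand) and C3 at chr17:57228137-57228386 (minus strand), with letters that match a searched motif in capitals.
C1qb: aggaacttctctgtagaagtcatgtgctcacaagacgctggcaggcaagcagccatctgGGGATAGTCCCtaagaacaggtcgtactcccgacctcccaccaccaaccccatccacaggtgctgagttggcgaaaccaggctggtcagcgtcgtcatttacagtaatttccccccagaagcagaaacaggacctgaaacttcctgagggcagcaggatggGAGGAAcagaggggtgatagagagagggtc
C3: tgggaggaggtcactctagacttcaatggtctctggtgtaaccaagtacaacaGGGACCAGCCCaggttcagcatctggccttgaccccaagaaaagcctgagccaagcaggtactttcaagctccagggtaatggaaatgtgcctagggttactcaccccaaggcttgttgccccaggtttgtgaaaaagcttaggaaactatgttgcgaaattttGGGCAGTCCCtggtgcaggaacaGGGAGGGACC
Stretches of 30 bases around matches are shown for C1qc at chr4:136892935-136892964 (minus strand), C1s1 at chr6:124542340-124542369 (minus strand) and C1ra at chr6:124512641-124512670 (plus strand).
C1qc: gtgggggagGGGGCTCTCCCtgctctgggc
C1s1: agcttcctgcaaaGGCCACTCCCtctggag
C1ra: gcaaatgcttcaTTCCCTGAAacaTTCCTC
The motifs were searched on both strands. The NF-kB site outline, GGG and CC with 5 bases between them, was in 5 of the 6 windows, all but that of C1ra, beside 50.8% of all 32851 promoter windows. The 6 windows include overlapping windows of C1s1, which hold the same NF-kB match, so that match is counted more than once. GAGGAA, an ETS site of the type bound by the myeloid factor PU.1, was in 3 of the 6 (C1qb, C1qc and C1ra) beside 28.3%. The STAT dimer site TTCNNNGAA was in 1 of the 6 (C1ra) beside 8.3%, and the interferon response core, GAAA and GAAA with 2 bases between them, was in 0 of the 6 beside 3.44%. A match gives letters in these windows and not a bound site.

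The values are the authors' FPKM, fragments scaled to transcript length and library size, then scaled to the upper quartile of each library and given as log2 after adding 0.1. They are per length, so levels can be compared between genes, and a gene without fragments is listed at -3.32. Depth read from the low values was 24.8 to 33.7 M fragments in 18 libraries and 5.23 M in S41. The median number of fragments behind a value was 1617 for C2, the least covered of the 9 genes, and 10759 for C1qa. Rag2 itself went against the labels: it was higher in tumors labelled Rag2-/- (-0.34 ± 0.74, SD, n = 11) than in tumors labelled Rag2+/- (-1.31 ± 0.70, SD, n = 8; exact permutation p = 0.0123), at 6 to 99 fragments a library. Which part of the gene the null allele keeps is not given in the sources used here, and the group names used below are the labels. Lymphocyte genes did follow the labels: Cd3e, a T cell receptor chain, was listed at -3.32 in all 11 Rag2-/- tumors and from -0.61 to 2.90 in the 8 Rag2+/- tumors. Igkc, the antibody kappa chain, was -3.02 ± 0.78 (SD, n = 11) and 6.71 ± 1.70 (SD, n = 8). Over all 8 T cell markers the list mean was -2.64 to -1.72 in Rag2-/- and -0.04 to 2.5 in Rag2+/- tumors, and over all 8 markers of B and plasma cells it was -2.75 to -2.06 and -0.08 to 2.72, without overlap in either list. Most of these markers were too low on average to enter the limma test. Trp53 was 4.31 ± 0.44 (SD, n = 11) and 4.52 ± 0.91 (SD, n = 8), groups that overlapped. Xist, a transcript of female cells, had a median of 3.22 in Rag2-/- and -2.51 in Rag2+/- tumors, with groups that overlapped (limma, adjusted p = 0.458). It was -3.05 in S46 and -3.32 in S51 and S56. Of the 8 hepatocyte markers, 0 passed the level required for testing, and Alb (albumin) stayed between -3.07 and 0.71, far below the complement genes. Col1a1, a collagen gene of the fibroblast list, was between 7.37 and 10.49. Skeletal muscle genes overlapped between the groups: the mean of 11 genes was 4.80 to 12.84 (median 8.64) in Rag2-/- tumors and 7.09 to 13.58 (median 11.23) in Rag2+/- tumors, with 11 of 11 lower on average in Rag2-/- tumors, 0 past the adjusted threshold and 8 at an unadjusted p under 0.05 (limma). Several tumors stood apart before any comparison: S46 had the highest adipocyte (9.05) and macrophage (7.29) list means, S51 the highest interferon gamma list mean (7.59) and S56 the highest muscle list mean (13.58). In bulk tissue, fewer cells of a type and less RNA per cell cannot be told apart.

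The C1q chain genes were the highest of the 9 in both groups and had the lowest SD within genotypes. C1qa was 8.51 in the lowest Rag2-/- tumor (S50), 8.97 in the median and 9.66 in the highest (S46). Among Rag2+/- tumors it was 7.45 in the lowest (S56), 8.64 in the median and 9.15 in the highest (S58). The groups overlapped, and the means of 8.99 ± 0.34 (SD, n = 11) and 8.62 ± 0.56 (SD, n = 8) gave a difference of 0.37 ± 0.21 (SE, limma, adjusted p = 0.343; exact permutation p = 0.085). C1qb ran from 8.40 (S50) over a median of 8.85 to 9.97 (S46) in Rag2-/- tumors. It ran from 7.49 (S56) over 8.50 to 9.08 (S55) in Rag2+/- tumors. These groups overlapped as well, with a difference of 0.35 ± 0.21 (SE, limma, adjusted p = 0.362; exact permutation p = 0.119). C1qc, the lowest of the 3 chains, was 7.49 (S50), 7.95 and 9.07 (S46) in the lowest, median and highest Rag2-/- tumor. The values in Rag2+/- tumors were 6.63 (S56), 7.84 and 8.21 (S59), a difference of 0.23 ± 0.21 (SE, limma, adjusted p = 0.509; exact permutation p = 0.324). S46 was the highest tumor and S56 the lowest of all 19 for each of the 3 chains. Without S56 the differences were 0.20 for C1qa, 0.20 for C1qb and 0.07 for C1qc, and without S46 that of C1qc was 0.13.

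**Figure D1:**
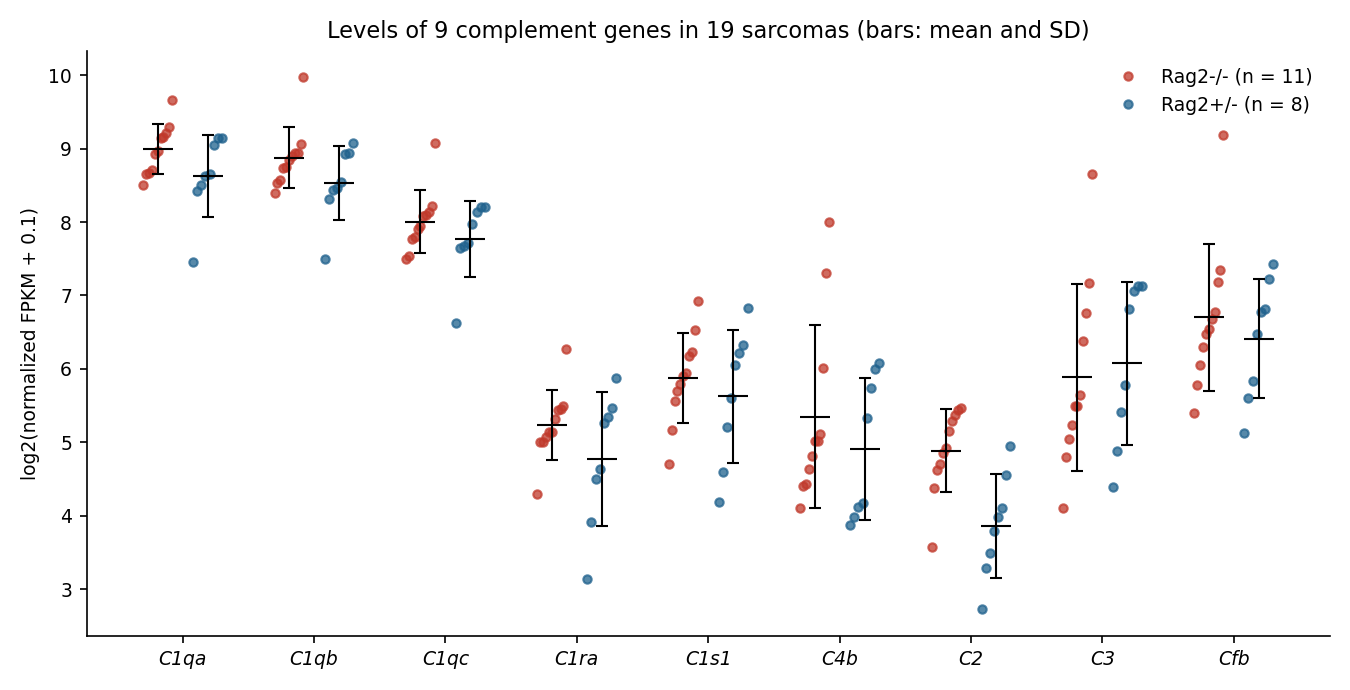
Log2(normalized FPKM + 0.1) of the 9 complement genes (y axis) in each of 11 Rag2-/- (red) and 8 Rag2+/- (blue) tumors, with the mean and SD of each group as bars. The groups overlap for each gene, the C1q chains stand highest and tightest, and C2 shows the widest gap between the means, 4.89 and 3.86.

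Within a tumor the 3 chains kept close to fixed proportions. The C1qa value was a median of 1.08 times the C1qb value and 1.94 times the C1qc value on the linear FPKM scale, and C1qb was 1.77 times C1qc. On the log2 scale the C1qb to C1qc ratio was 0.82 ± 0.13 (SD, n = 19), and C1qb was higher than C1qc in 19 of 19 tumors. C1qa was higher than C1qb in 16 of 19, with a mean difference of 0.11 ± 0.15 (SD, n = 19) that was below its SD. This order was not tested. The largest departure was S46, where C1qa was 0.31 below C1qb on the log2 scale (-0.31).

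The protease genes C1ra and C1s1, whose products form the enzymatic core of C1, were lower than the C1q chains, C1s1 lying 2.96 ± 0.70 (SD, n = 19) below C1qb on the log2 scale. C1ra was 4.30 (S48), 5.14 and 6.27 (S51) in the lowest, median and highest Rag2-/- tumor. In Rag2+/- tumors it was 3.14 (S53), 4.96 and 5.88 (S55). The Rag2+/- tumors spread more widely, S53 and S58 lying below all 11 Rag2-/- tumors, and the difference of 0.47 ± 0.30 (SE, limma, adjusted p = 0.39; exact permutation p = 0.166) did not pass. C1s1 was 4.71 (S48), 5.90 and 6.92 (S51) in Rag2-/- tumors. Rag2+/- tumors gave 4.19 (S53), 5.83 and 6.83 (S55), a difference of 0.25 ± 0.33 (SE, limma, adjusted p = 0.652; exact permutation p = 0.483). The same tumors thus stood at the extremes of both genes in each group. Without S53 the difference was 0.23 for C1ra and 0.04 for C1s1, and that of C1s1 was 0.14 without S51, 0.10 without S58 and 0.42 without S55. The linear ratio of C1s1 to C1ra had a median of 1.66. Counting here has 2 limits: 26.3% of the 150-base windows of the longest C1ra transcript are also in its paralog C1rb, and C1s1 shares 576 of its exonic bases (18.4%) with the antisense gene Gm16567. Counting by strand is not stated, so reads from C1s1 and Gm16567 could not be told apart.

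C2, the protease subunit of the classical C3 convertase, was the lowest of the 9 genes and the only one with an unadjusted p under 0.05. In Rag2-/- tumors it was 3.57 in the lowest (S48), 4.93 in the median and 5.47 in the highest (S43). In Rag2+/- tumors it was 2.73 in the lowest (S53), 3.89 in the median and 4.95 in the highest (S55). Of the 11 Rag2-/- tumors 10 were above the median of the Rag2+/- tumors, and of the 8 Rag2+/- tumors 7 were below the median of the Rag2-/- tumors, but the groups overlapped. The means of 4.89 ± 0.57 (SD, n = 11) and 3.86 ± 0.71 (SD, n = 8) differed by 1.03 ± 0.28 (SE), a ratio of 2.04 on the scale of log2(value + 0.1). The single-gene p was 0.00315 (two-sided exact permutation test, 75582 splits), and with limma it was 0.00152, which became 0.301 after adjustment over 12826 genes. Its difference was 1.14 with the muscle list as a covariate and 0.945 with the macrophage list, with adjusted p of 0.997 and 0.365 (limma). The macrophage list moved the other genes further, as given with the counts over the 9 genes. C2 and Cfb share exonic bases with Gm20547, a joint gene model of the same strand (42.8% of those of C2 and 79.5% of those of Cfb), which was listed at -3.32 in all tumors but S43 (-1.92).

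C4b encodes C4, whose cleaved form holds C2 in the convertase. It was 4.10 (S48), 5.02 and 8.0 (S46) in the lowest, median and highest Rag2-/- tumor. The Rag2+/- values were 3.88 (S58), 4.75 and 6.08 (S60). S46 and S51 (7.30) were above all the other tumors, and the group difference of 0.44 ± 0.50 (SE, limma, adjusted p = 0.598; exact permutation p = 0.427) was below its own error. It was 0.17 without S46, 0.24 without S51 and 0.29 without S58. The near copy C4a shares 8.26% of the 150-base windows of C4b, and the mean over the paralogs C4a, C1rb and C1s2 was at most -1.52 in any tumor.

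Cfb, the protease subunit of the alternative convertase, was the highest gene after the C1q chains. It was 5.40 (S48), 6.55 and 9.19 (S51) in the lowest, median and highest Rag2-/- tumor. In Rag2+/- tumors it was 5.13 (S53), 6.63 and 7.43 (S59). The next Rag2-/- tumor after S51 was S46 at 7.34, and the groups differed by 0.29 ± 0.41 (SE, limma, adjusted p = 0.666; exact permutation p = 0.527). That difference was 0.04 without S51, 0.11 without S53 and 0.18 without S56. C3, the protein on which all pathways meet, was 4.11 (S48), 5.49 and 8.66 (S51) in Rag2-/- tumors. In Rag2+/- tumors it was 4.39 (S53), 6.30 and 7.13 (S59). It was the only one of the 9 genes with a lower mean in Rag2-/- tumors, 5.89 ± 1.27 (SD, n = 11) against 6.07 ± 1.10 (SD, n = 8), a difference of -0.19 ± 0.53 (SE, limma, adjusted p = 0.84; exact permutation p = 0.745), whose sign turned with Xist, a transcript of female cells (0.06), or the muscle list (0.67) as a covariate. Leaving out 1 tumor at a time gave differences of C3 from -0.46 (without S51) to -0.01 (without S48).

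All 9 genes passed the level required for testing, and 0 of 9 had an adjusted p under 0.05 (limma). Over all 12826 tested genes, 0.0312% were called, which were Igha, Igkc, Cd2 and Tnfrsf18, each lower in Rag2-/- tumors and each with a mean above 0, the level required, only in the Rag2+/- group. At an unadjusted p under 0.05, 1 of the 9 complement genes passed, beside 16.3% of all tested genes. That count was 4 of 9 when the muscle list mean was a covariate, beside 4.42% of all genes. These were C1ra (difference 0.93), C2 (1.14), Cfb (0.81) and C1s1 (0.72), each higher in Rag2-/- tumors and each with an adjusted p of 0.997 (limma). It was 3 of 9 with quantile normalization, beside 16.9%, 3 of 9 without S55, beside 22.6%, and 2 of 9 without S58, beside 23.6%. The share over all genes itself rested on single tumors: it was 7.14% without S56, 7.99% without S59 and 8.17% without S60, and 25.1% without S53 and 32.4% without S51, each with 1 of the 9 genes. The groups were separated without overlap in 0 of the 9, beside 0.0156% of all genes. The mean was higher in Rag2-/- tumors for 8 of the 9, beside 56.2% of all genes, and the median difference was 0.35 for the 9 and 0.06 for all. That median was 0.23 without S46, 0.23 without S53 and 0.20 without S56. It was 0.50 with quantile normalization, beside 0.09 for all genes, and 0.36 with Xist as a covariate, beside 0.03. With the macrophage list mean as a covariate it was 0.09, beside 0.06 for all genes. The differences then were 0.22 for C1qa, 0.17 for C1qb, 0.06 for C1qc, 0.36 for C1ra, 0.09 for C1s1, 0.08 for C4b, 0.09 for Cfb and -0.45 for C3, and 0 of 9 were called (limma). With the muscle list the median was 0.72, beside -0.02 for all genes, and the difference adjusted for the list was above 0 for 9 of 9, beside 45.9% of all genes, C4b standing at 0.98 (limma, adjusted p = 0.997). The C1q chains went the other way, to smaller differences than without a covariate: 0.23 for C1qa, 0.26 for C1qb and 0.12 for C1qc. In the 15 tumors that the study's source data list, which leave out S41, S46, S51 and S56, the call was again 0 of 9 and 1 had an unadjusted p under 0.05 (limma), beside 0.116% and 22.1% of all genes. The median difference of the 9 was 0.07 there, beside 0.06 for all genes, and the mean was higher in Rag2-/- tumors for 5 of the 9, beside 55.3% of all genes. The differences of C1qc (-0.08), C4b (-0.23) and Cfb (-0.21) turned sign, those of C1qa and C1qb were 0.12 and 0.08, that of C1s1 was 0.07 and that of C3 was -0.70, while that of C2 was 0.89 (limma, adjusted p = 0.217).

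**Figure D2:**
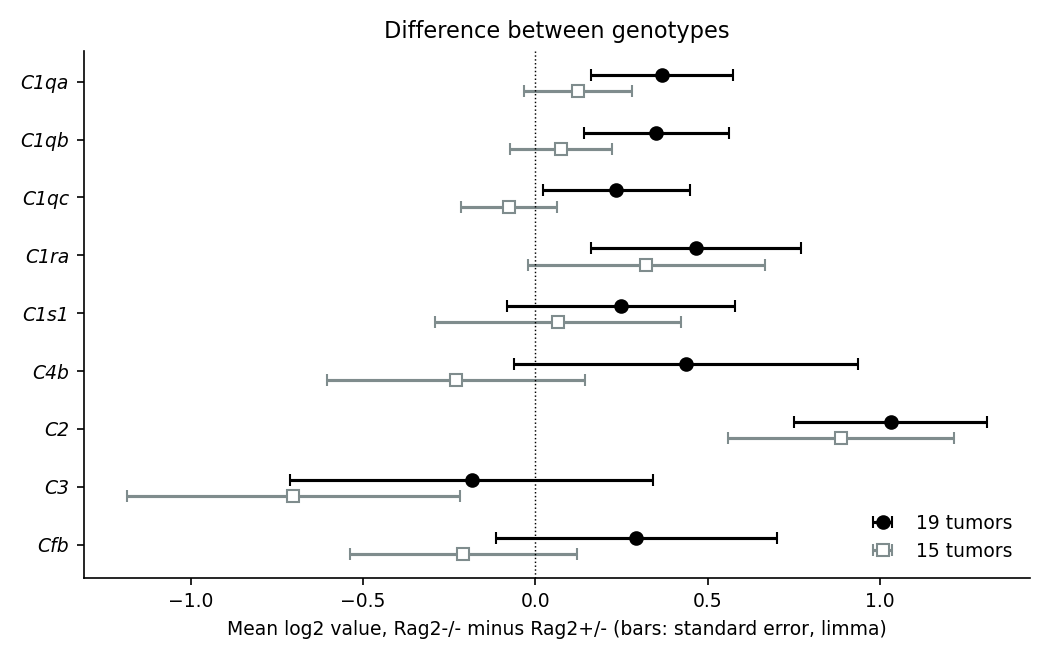
Difference of the mean log2 value between Rag2-/- and Rag2+/- tumors (x axis) for each of the 9 genes, with its standard error from limma, in all 19 tumors (black) and in the 15 of the study's source data (open squares). C2 is farthest from 0 at 1.03, and the values of C1qc, C4b and Cfb lie on opposite sides of 0 in the 2 sets of tumors.

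By their mean over 19 tumors the genes stood in the order C1qa (8.84), C1qb (8.73), C1qc (7.91), Cfb (6.58), C3 (5.97), C1s1 (5.77), C4b (5.17), C1ra (5.04) and C2 (4.46). C1qa was at the 99.0th percentile of the mean level of tested genes and C2 at the 74.6th. Within a tumor, C3 and C1s1 differed by 0.20 ± 0.68 (SD, n = 19) with C3 higher in 12 of 19. C4b and C1ra differed by 0.12 ± 0.81 (SD, n = 19) with C4b higher in 9 of 19. The mean difference of these neighbors, like that of C1qa and C1qb, was below its SD between tumors, and no order was tested. The step from C1qb to C1qc was the only one seen in all 19 tumors. Cfb was higher than C3 in 16 of 19 tumors, at 0.61 ± 0.55 (SD, n = 19), and the linear ratio of Cfb to C2, the paired subunits of the 2 convertases, had a median of 3.75. The log2 of that ratio averaged 1.82 (SD 0.79, n = 11) for the Rag2-/- and 2.55 (SD 0.72, n = 8) for the Rag2+/- group.

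Variation between tumors was large for C3, C4b and Cfb and smaller for the C1q chains. Over all 19 tumors, both genotypes together, the highest tumor had 23.6 times the C3 value of the lowest, 17.4 times for C4b and 16.7 times for Cfb, but 4.63 times for C1qa, 5.58 times for C1qb and 5.44 times for C1qc. These spans rested on single tumors. Without S51 they were 8.38 times for C3 and 4.94 times for Cfb, which is below that of C1qb. Without S46 the span of C4b was 10.7 times, and those of C1qb and C1qc were 3.02 and 3.03 times. Without S56 the C1q chains spanned 2.37 to 3.15 times. The within-genotype SD of C3 was 1.21, at the 90.1th percentile of tested genes, and that of C1qa was 0.44, at the 41.3th percentile. Without S51 the within-genotype SD was 1.01 for C3 and 0.70 for Cfb, beside 0.45 to 0.48 for the C1q chains. The extremes fell on a few tumors. S48 was the lowest Rag2-/- tumor for C1ra, C1s1, C2, C4b, Cfb and C3, but not for the C1q chains. S53 was the lowest Rag2+/- tumor for C1ra, C1s1, C2, Cfb and C3, at 3.14 for C1ra. S51 was highest of all 19 for C1ra, C1s1, Cfb and C3, while its C1qb value of 8.73 lay in the middle of the range. S46 was highest for the C1q chains and C4b.

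**Figure D3:**
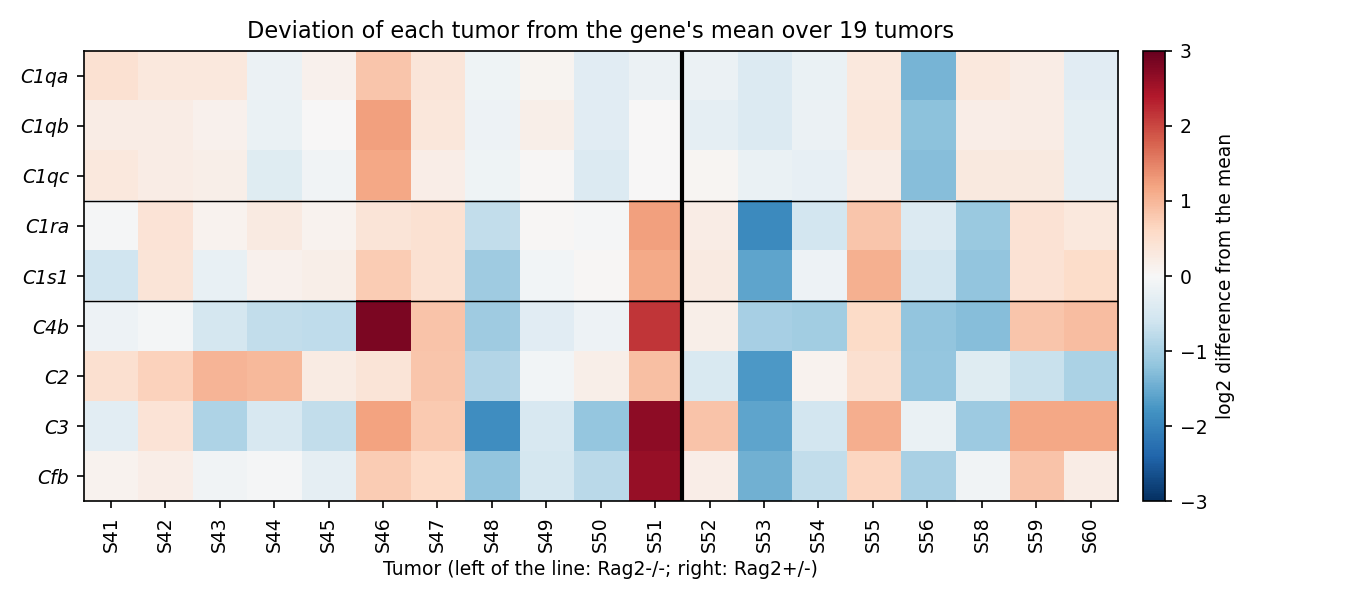
Log2 difference of each tumor (columns, Rag2-/- left and Rag2+/- right of the line) from the mean over 19 tumors, for each of the 9 genes (rows). S46 is high for the C1q chains and C4b, S51 for C1ra, C1s1, C4b, C3 and Cfb, and S56 is low for the C1q chains while S48 and S53 are low for most of the other genes.

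The genes moved in groups across tumors. All 36 pairs were correlated over 19 tumors (100000 random permutations, adjusted over the 36 pairs). The 3 pairs of C1q chains had r from 0.94 to 0.96. For C1qb and C1qc, r was 0.96 (permutation p = 2e-05, adjusted p = 0.00012) and rho 0.89 (permutation p = 1e-05, the smallest these permutations can give). Without the 2 tumors farthest from the median of C1qb, r was 0.84. The 10 pairs among C1ra, C1s1, C4b, Cfb and C3 had r from 0.70 to 0.94, and 10 of 10 had an adjusted permutation p under 0.05. C1ra and C1s1 had r = 0.94 (permutation p = 1e-05, adjusted p = 9e-05), rho = 0.94 (permutation p = 1e-05), and r = 0.91 without the 2 outermost tumors. Cfb and C3, which lie far apart on chromosome 17, had r = 0.89 (permutation p = 1e-05, adjusted p = 9e-05), rho = 0.89 (permutation p = 1e-05), and r = 0.83 without the 2 outermost tumors. The ranges held inside each genotype, where these 10 pairs had r from 0.70 to 0.96 in Rag2-/- tumors and from 0.80 to 0.98 in Rag2+/- tumors. When S41, S46, S51 and S56 were left out, which gives the 15 source data tumors, they were 0.74 to 0.96, and the C1q pairs 0.84 to 0.96.

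Between the C1q chains and the other group r was lower. Their 15 pairs with C1ra, C1s1, C4b, Cfb and C3 had r from 0.18 to 0.61, and 2 of the 15 (C1qb and C1qc with C4b) had an adjusted permutation p of r under 0.05. By rho 2 others of the 15 passed, C1qb and C1qc with Cfb. For C1qb and C4b, r was 0.61 (permutation p = 0.00697, adjusted p = 0.0167) and rho 0.45 (permutation p = 0.0571), and r fell to 0.24 without the 2 outermost tumors, so this relation rested on them. For C1qb and Cfb, rho was 0.61 (permutation p = 0.00692, adjusted p = 0.0178) and r 0.48 (permutation p = 0.0455, adjusted p = 0.078), with r = 0.44 without the 2 outermost tumors and 0.64 in the 15 tumors. C1qc and Cfb had rho = 0.59 (permutation p = 0.0088, adjusted p = 0.0211) and r = 0.47 (permutation p = 0.0516, adjusted p = 0.0844), with r = 0.41 without the 2 outermost tumors and 0.61 in the 15 tumors. For C1qa and C3, r was 0.18 (permutation p = 0.47) and rho 0.18 (permutation p = 0.464), and 0.10 without the 2 outermost tumors. C2 stood between the groups, with r from 0.38 to 0.56 with the C1q chains and from 0.30 to 0.66 with the others. Its r was highest with C1ra (permutation p = 0.0019, adjusted p = 0.00489; rho = 0.54, permutation p = 0.0179; 0.50 without the 2 outermost tumors), while its rho was highest with C1qa (0.56, permutation p = 0.0147). Within the Rag2-/- tumors its r with the C1q chains was 0.12 to 0.21, and with C1ra, C1s1, C4b, Cfb and C3 it was 0.32 to 0.75. Within the Rag2+/- tumors these were 0.46 to 0.62 and 0.215 to 0.59. Whether these r values differ between pairs or genotypes was not tested.

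**Figure D4:**
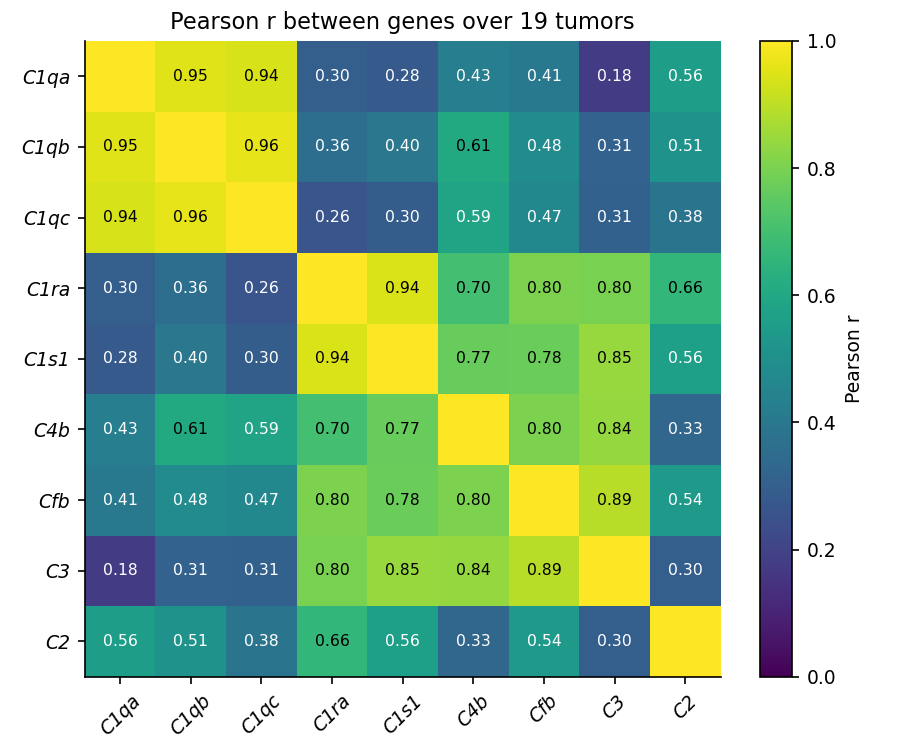
Pearson r between each pair of the 9 genes over 19 tumors, as numbers and as color from 0 to 1. The C1q chains form a block at 0.94 to 0.96, C1ra, C1s1, C4b, Cfb and C3 a block at 0.70 to 0.94, and C2 lies between.

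Each of the 9 genes was set against the mean of 3 gene lists over 19 tumors (27 relations, 100000 random permutations, adjusted over the 27). Macrophage genes (12 genes, mean 5.36 to 7.29 in Rag2-/- and 4.31 to 6.21 in Rag2+/- tumors; 0 of the 12 called between genotypes and 1 at an unadjusted p under 0.05, limma) were correlated with 4 of the 9 by r, the C1q chains and C4b, and with 8 of the 9, all but C2, by rho (adjusted permutation p under 0.05). For C1qb r was 0.92 (permutation p = 3e-05, adjusted p = 0.00027) and rho 0.78 (permutation p = 0.0002). It was 0.97 within Rag2-/- and 0.89 within Rag2+/- tumors, and fell to 0.66 without the 2 tumors farthest from the median of C1qb and to 0.67 in the 15 tumors of the source data. S46 had the highest and S56 the lowest level of the macrophage genes Adgre1 (7.59 and 3.96) and Csf1r (7.91 and 4.52), as of the C1q chains. C4b had r = 0.76 with the macrophage list (permutation p = 0.0001, adjusted p = 0.000675), rho = 0.79 (permutation p = 8e-05), and r of 0.66 without the 2 outermost tumors and 0.72 in the 15 tumors. For Cfb r was 0.53 (permutation p = 0.0295, adjusted p = 0.0592) and rho 0.79 (permutation p = 0.00012, adjusted p = 0.00135), and r was 0.74 without the 2 outermost tumors and 0.71 in the 15. For C3 r was 0.49 (permutation p = 0.0307, adjusted p = 0.0592) and rho 0.72 (permutation p = 0.00083, adjusted p = 0.00355), and r was 0.55 without the 2 outermost tumors and 0.79 in the 15. By rho and by r without the outermost tumors the macrophage list was thus as close to C4b and Cfb as to the C1q chains, among which C1qa had rho = 0.57 (permutation p = 0.0116) and r = 0.51 without the 2 outermost tumors. For C1ra r with the macrophage list was 0.41 (permutation p = 0.0885, adjusted p = 0.149) and rho 0.72 (permutation p = 0.00092, adjusted p = 0.00355).

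The list of 14 interferon gamma response genes was correlated with 5 of the 9 by r (C1ra, C1s1, C4b, Cfb and C3) and with 9 of 9 by rho (adjusted permutation p under 0.05). Its r over 19 tumors was highest with Cfb, at 0.91 (permutation p = 1e-05, adjusted p = 0.00027), rho = 0.78 (permutation p = 0.00016) and r = 0.80 without the 2 outermost tumors. It was 0.94 within Rag2-/- and 0.82 within Rag2+/- tumors, and 0.83 in the 15 tumors without S51. C3 had r = 0.71 (permutation p = 0.00062, adjusted p = 0.00279), rho = 0.52 (permutation p = 0.023) and r = 0.46 without the 2 outermost tumors. C1ra had r = 0.62 (permutation p = 0.0114, adjusted p = 0.0385) and rho = 0.62 (permutation p = 0.00538), and its r of 0.85 without the 2 outermost tumors was above that of Cfb. C1s1 had r = 0.56 (permutation p = 0.0114, adjusted p = 0.0385; rho = 0.50, permutation p = 0.031; 0.68 without the 2 outermost tumors) and C4b r = 0.58 (permutation p = 0.0148, adjusted p = 0.0444; rho = 0.52, permutation p = 0.0235; 0.50 without the 2 outermost tumors). The C1q chains did not pass by r, at 0.30 to 0.35 (adjusted permutation p from 0.176 to 0.222), and passed by rho, at 0.53 to 0.60 (adjusted permutation p from 0.0206 to 0.039). Their r was 0.19 to 0.37 without the 2 outermost tumors and 0.65 to 0.70 in the 15 tumors. Within Rag2+/- tumors their r was 0.78 to 0.80 and within Rag2-/- tumors -0.09 to 0.09, a difference that was not tested. The list mean was 7.59 in S51, the tumor highest for Cfb, and 3.84 to 5.46 in the other 18 tumors. Between genotypes 0 of the 14 genes were called and 0 had an unadjusted p under 0.05 (limma), and the list means overlapped, at 3.90 to 7.59 and 3.84 to 5.46.

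Fibroblast genes had negative r with C1ra (-0.17), C1s1 (-0.14), C4b, Cfb and C3. Their r was positive with C1qa (0.40, permutation p = 0.0965), C1qb (0.27, permutation p = 0.251), C1qc (0.20, permutation p = 0.393; rho = -0.02) and C2 (0.27, permutation p = 0.265; rho = 0.38, permutation p = 0.11; 0.18 without the 2 outermost tumors). After adjustment 0 of the 9 genes passed over all 19 tumors. For C2 r was 0.62 within Rag2+/- tumors (exact permutation p = 0.0984), -0.24 within Rag2-/- tumors (permutation p = 0.435) and 0.57 in the 15 tumors. Over 10 genes including Col1a1, of which 0 were called and 0 had an unadjusted p under 0.05 (limma), the list mean had r = -0.51 with C3 (permutation p = 0.0249, adjusted p = 0.056; rho = -0.45, permutation p = 0.0569; -0.26 without the 2 outermost tumors). Within Rag2-/- tumors r was -0.85 with Cfb (permutation p = 0.0101, adjusted p = 0.0341; rho = -0.57, permutation p = 0.0705) and -0.76 with C3 (permutation p = 0.0156, adjusted p = 0.0468; rho = -0.48, permutation p = 0.137), which passed for r. Within Rag2+/- tumors it was 0.10 with Cfb and -0.13 with C3 (exact permutation p = 0.82 and 0.762). In the 15 tumors without S51 it was -0.16 with Cfb and -0.27 with C3. S51 had the lowest fibroblast list mean of all tumors, 5.38, and a Col1a1 of 7.37. Bulk libraries hold fibroblasts and tumor cells together, and the part of each in this list was not tested. Against the mean of 5 adipocyte genes (0 of 4 tested called, 0 at an unadjusted p under 0.05, limma), a list added after seeing the data and adjusted with 36 such relations, 5 of the 9 passed by r and by rho (C1ra, C1s1, C4b, Cfb and C3). C4b had r = 0.87 (permutation p = 1e-05, adjusted p = 0.00036), rho = 0.62 (permutation p = 0.00471) and r = 0.74 without the 2 outermost tumors. That r was 0.89 within Rag2-/- and 0.88 within Rag2+/- tumors, and 0.81 in the 15 tumors, while rho was 0.38 within Rag2-/- tumors (permutation p = 0.248). The Rag2-/- tumors S46 (9.05), S47 (6.01) and S51 (5.80) lay apart in the adipocyte list mean from the other 8, which ran from -1.60 to 1.14. C3 had r = 0.76 (permutation p = 9e-05, adjusted p = 0.00162), rho = 0.73 (permutation p = 0.00079) and r = 0.76 without the 2 outermost tumors, and C1s1 had r = 0.68 (permutation p = 0.00154, adjusted p = 0.00632), rho = 0.73 (permutation p = 0.00055) and r = 0.66 without them. By rho these were above C4b, and by r without the outermost tumors C3 was. Cfb had r = 0.68 and C1ra r = 0.58 (adjusted permutation p = 0.00632 and 0.0225; rho = 0.63 and 0.65; 0.62 and 0.56 without the 2 outermost tumors). The part of these cell types in the levels of the complement genes was not tested.

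**Figure D5:**
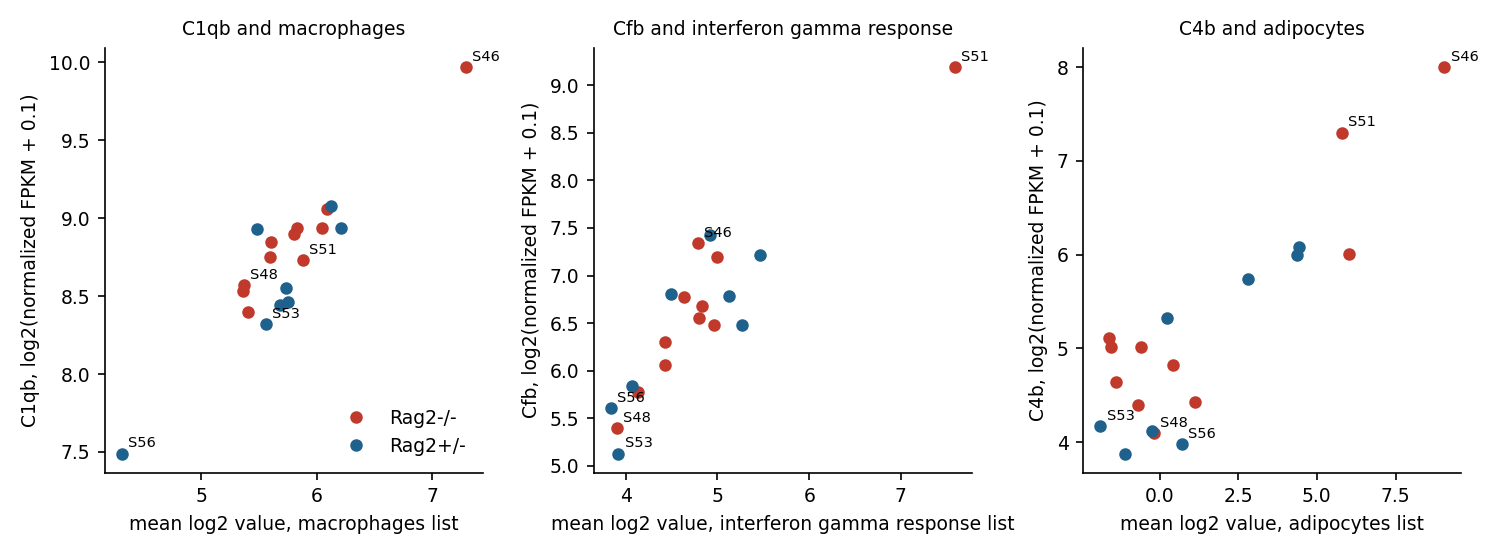
Levels in each tumor of C1qb against the mean of 12 macrophage genes, of Cfb against 14 interferon gamma response genes and of C4b against 5 adipocyte genes, all as log2 values (red Rag2-/-, blue Rag2+/-). S46 and S56 mark the ends for C1qb, S51 stands apart for Cfb, and S46 and S51 hold the highest C4b.

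The 3 tested genes most like each member were found by Pearson r over 19 tumors after the genotype means were removed, as a description among 12826 genes. C1qa was closest to C1qc and C1qb (0.94 each) and then to Cd300c2, a myeloid surface receptor (0.94). C1qb was closest to C1qc (0.97), Ctsh, a lysosomal protease (0.96), and Cyth4 (0.95). After C1qb, C1qc was closest to Adgre1, which encodes the macrophage antigen F4/80 (0.95), and Lcp1, a leukocyte actin-bundling protein (0.95). C1ra was closest to C1s1 (0.95), then to Gm16567 (0.94) and Serping1, which encodes the C1 inhibitor (0.92). C1s1 was closest to Gm16567 (0.97), then to C1ra (0.95) and Serping1 (0.91). C4b was closest to Hp, which encodes haptoglobin (0.94), Gda, guanine deaminase (0.94), and Glul, glutamine synthetase (0.93). Cfb was closest to H2-T23, a nonclassical MHC class I gene (0.96), Acod1, which makes itaconate (0.94), and Cd274, which encodes PD-L1 (0.94). C3 was closest to Fth1, the ferritin heavy chain (0.94), Xdh, xanthine dehydrogenase (0.93), and Serping1 (0.92). C2 had no such close match, its nearest genes being Slfn1 (0.80), Plac8 (0.78) and Ly6a (0.78). The number of genes at r above 0.8 was 1 for C2, 20 for C1ra, 30 for C1s1 and between 138 and 243 for the other 6.

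Of 46 other complement genes, 19 were high enough to be tested and 7 were listed at -3.32 in all 19 tumors. None was called between genotypes (limma, 0 of 19), 1 had an unadjusted p under 0.05, and the median difference was 0.12 beside 0.06 for all tested genes. In the lectin pathway, Colec12, a scavenger receptor, was 5.46 ± 1.25 (SD, n = 11) and 4.87 ± 1.23 (SD, n = 8), and Masp1, a protease of that pathway, was 3.10 ± 2.15 and 2.58 ± 1.61. Of the alternative pathway activators, Cfp (properdin) was 5.84 ± 0.78 and 5.50 ± 0.55. Cfd, factor D, which cuts factor B and is a major product of fat cells, ranged from -2.80 to 10.49 in Rag2-/- tumors and from -1.21 to 6.83 in Rag2+/- tumors, with S46 highest. Adipoq, a fat cell gene, was also highest in S46, at 8.68.

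The terminal pathway was nearly silent, with 1 of 7 genes tested (C7, 0.17 ± 1.33 and 0.64 ± 1.76). Among soluble regulators, Serping1 was 7.17 ± 0.77 and 7.02 ± 0.79, above all members but the C1q chains, and Clu (clusterin) was 5.20 ± 1.11 and 6.06 ± 0.84 (limma, adjusted p = 0.32). Among membrane regulators, Cr1l (Crry), which inactivates C3b and C4b on mouse cells, was even across tumors at 4.92 ± 0.26 and 4.87 ± 0.16. Cd55, which speeds convertase decay, was 2.90 ± 1.09 and 4.05 ± 1.52 (limma, adjusted p = 0.308). Cd59a, which blocks membrane pores and is named because it was the 1 gene with an unadjusted p under 0.05, was 1.36 ± 0.99 and 2.49 ± 1.22 (limma, p = 0.0287, adjusted p = 0.301). Of the receptors, Itgb2 and Itgam, the chains of complement receptor 3, were 5.62 ± 0.75 and 5.83 ± 0.77, and 5.38 ± 0.40 and 4.95 ± 0.60. The first value of each pair is the mean ± SD of 11 Rag2-/- tumors and the second that of 8 Rag2+/- tumors.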

How the data were processed

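RNA of 19 tumors was sequenced by the submitters as 150 bp paired-end reads, 1 library per tumor, each with its own number in the labels. Per the methods, the authors used the Omicsoft aligner on mouse B38 with Ensembl genes, and turned FPKM into upper-quartile scaled log2 values, and the submitters' processing notes also name Trimmomatic 0.36, STAR and HTSeq on mm10. The deposited values are log2(normalized FPKM + 0.1), not counts. Upper-quartile scaling makes each level relative to the other genes of its library. Adding 0.1 understates the change of low genes.

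Genes with a mean log2 value above 0 (12826 of 48795) were fitted with limma 3.58.1 (R 4.3.3, intensity trend) over all 19 tumors, Rag2-/- against Rag2+/-, with Benjamini-Hochberg adjustment at 0.05; the fit was tested on simulated data. Single genes also had a two-sided exact permutation test (75582 splits, smallest p 1.32e-05), and correlations 100000 random permutations or all 40320 pairings of 8 tumors (scipy 1.17.1, Python 3.11.15). The p-values measure the spread between tumors. Depth was estimated from the steps of low values with GENCODE gene models on GRCm38, another release than that of the authors. Genomic positions come from the same models. The labels give no batch. Columns not matched to a sample numbered 0.

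The members and lists were chosen with earlier results of these data known. The named genes are the 9 members, check genes set by name (Adgre1, Csf1r, Cd68, Col1a1, Alb, Adipoq, Cd3e, Igkc, Rag2, Trp53, Xist), in each role of the other complement genes those called and the 2 tested genes with the highest mean, and the 3 genes most like each member. Igha, Cd2, Tnfrsf18, Cd59a and the antisense and joint gene models are named outside this rule, after their values were seen. The lists cover macrophages, fibroblasts, neutrophils, hepatocytes, adipocytes, skeletal muscle, T cells, B and plasma cells, interferon gamma response genes and acute phase genes. Alternatives were the 15 tumors of the source data, each tumor left out, pseudocounts of 1 and 0.01, other filters, normalizations and variance models, and Xist, muscle and macrophage covariates, with an adipocyte covariate added after seeing the data. Exome data were not used here.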

Additional observations from a re-analysis of the deposited data

Results flagged for a closer look

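In tumors labelled Rag2+/-, S56 stood apart as the lowest tumor for C1qa, at 7.45 with the next at 8.42. The gap was 0.57 of the range of the 8 tumors, above Dixon's critical value for 8 values. S56 was also the lowest for C1qc, at 6.63 with the next at 7.64, a gap of 0.642 of the range. Chance flags about 1 in 20 groups, and 9 genes were examined, of which the C1q chains are not independent. S56 had the lowest macrophage list mean (4.31) and the highest skeletal muscle list mean (13.58) of all 19 tumors, and the part of either in the C1q values was not tested.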

How the results depend on the processing

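The count of complement genes called was 0 in the main analysis and in all 32 alternatives. The number of genes called over the whole table moved from 4 to 15 in the 15 tumors of the source data, 34 with no filter on low values, 0 with a mean log2 value above 2 required (limma, with 1676 genes at an unadjusted p under 0.05) and 2 with the muscle list as a covariate. Leaving out 1 tumor at a time gave 3 to 7 genes, the count being 7 without S51 and 7 without S56. The sign turned for C1qc (-0.0768), C4b (-0.23) and Cfb (-0.209) in the 15 tumors and for C3 with Xist (0.0645) and with the muscle list (0.666) as a covariate; the cause was not tested, and none of these differences was called. C2 kept its direction in all 32 alternatives, with differences from 0.865 to 1.18 and adjusted p from 0.0941 (without S51) to 0.997 (limma, muscle list covariate). The median r between members was 0.55, and 0.411 to 0.592 under its 3 alternatives. No paired analysis was possible because the labels give no replicate numbers: those used here follow deposit order and tie no tumor to a litter or batch. The 19 tumors, the muscle level, lower on average in Rag2-/- tumors, the uneven Xist level and the shallow library S41 limit the precision. A missed threshold does not show that the groups were alike.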

Other observations

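Neutrophil genes (6 genes, mean 1.21 to 3.85 in Rag2-/- and -0.31 to 2.40 in Rag2+/- tumors), added as a list after seeing the data, were correlated over 19 tumors with 6 of the 9 complement genes by r, all but the C1q chains, and with 5 by rho, these without C2 (adjusted permutation p under 0.05). For C1ra r was 0.72 (permutation p = 0.00067, adjusted over 36 relations p = 0.00533), rho 0.67 (permutation p = 0.00227), and r 0.45 without the 2 tumors farthest from the median of C1ra. For C1qc it was 0.19 (permutation p = 0.421; rho 0.26, permutation p = 0.288; 0.33 without the 2 outermost tumors). For C1qb it was 0.33 (permutation p = 0.162, adjusted p = 0.194; rho 0.48, permutation p = 0.0417, adjusted p = 0.0751), and 0.60 without the 2 outermost tumors, above the value of C1ra on that measure. None of the 5 neutrophil genes tested was called between genotypes (limma, 0 with an unadjusted p under 0.05).

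Against 12 acute phase and NF-kB response genes, of which 0 were called between genotypes and 2 had an unadjusted p under 0.05 (limma), 5 of the 9 complement genes passed by r (C1ra, C1s1, C4b, Cfb and C3) and 7 by rho, all but C1qa and C1qc. Cfb had the highest r over 19 tumors, 0.79 (permutation p = 0.00022, adjusted p = 0.00264), with rho 0.69 (permutation p = 0.00134) and r 0.62 without the 2 outermost tumors. C1ra and C1s1 were above it on the latter measures. C1ra had r = 0.63 (permutation p = 0.00565, adjusted p = 0.0169), rho 0.81 (permutation p = 4e-05) and r 0.70 without the 2 outermost tumors, and C1s1 had r = 0.64 (permutation p = 0.00298, adjusted p = 0.00975), rho 0.73 (permutation p = 0.00064) and r 0.64 without them. C3 had r = 0.69 (permutation p = 0.00074, adjusted p = 0.00533), rho 0.59 (permutation p = 0.00886) and r 0.57 without the 2 outermost tumors.

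The skeletal muscle list, which was lower on average in Rag2-/- tumors, passed the adjusted threshold with 1 of the 9, C3, at r = 0.68 (permutation p = 0.00145, adjusted p = 0.00632; rho 0.59, permutation p = 0.00891; 0.54 without the 2 outermost tumors). It was 0.76 within Rag2-/- tumors (permutation p = 0.00778, adjusted p = 0.04; rho 0.45, permutation p = 0.164) and 0.68 within Rag2+/- tumors (exact permutation p = 0.0616). Within Rag2-/- tumors C1ra and C1s1 also passed by r, at 0.83 and 0.79 (permutation p = 0.00488 and 0.00528, adjusted p = 0.0317 for both; rho 0.54 and 0.62, permutation p = 0.0941 and 0.0471). With C1qa r was -0.44 (permutation p = 0.0583, adjusted p = 0.0999; rho -0.46, permutation p = 0.0506; -0.21 without the 2 outermost tumors). The sign of r was thus positive for C3 and negative for C1qa, and the part of muscle in these levels was not tested.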
